A study of Mus musculus with 8 samples.

Results

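The negative arm of the circadian clock was described in liver RNA as 10 genes, Per1, Per2, Per3, Cry1, Cry2, Nr1d1, Nr1d2, Ciart, Bhlhe40 and Bhlhe41, out of 52636 genes in the count tables. The genes were listed by symbol as repressors of the clock, and the list was chosen by symbol with earlier fold changes of this same contrast, AAV8-AGXT against AAV8-GFP, in view, so their values, fold changes and calls are given as a description, and no test is read from any of them. Each symbol matched 1 Ensembl gene, and all 10 genes passed the filter on low counts that left 15248 genes for testing.

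Livers of 8 male wild-type C57BL/6J mice were sequenced as stranded mRNA libraries, 1 library per mouse. Each mouse received an adeno-associated virus of serotype 8 at 7 weeks of age, and from 8 weeks of age all 8 ate the MASH diet, which is high in fat, fructose and cholesterol, for 24 weeks. In 4 mice (AAV8-GFP, animals 303, 311, 314 and 315) the virus carried GFP, and in 4 mice (AAV8-AGXT, animals 308, 309, 316 and 319) it carried human AGXT, the peroxisomal enzyme that turns glyoxylate into glycine. Both transgenes were driven by the TBG promoter, which is active in hepatocytes, while the RNA came from whole liver. Every mouse thus carried a virus and ate the diet, and the groups differed in the transgene. The hour of the day at which the livers were taken is not given in the sources used here.

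The clock of the hepatocyte is a loop of transcription. CLOCK and BMAL1 (the product of Arntl), or NPAS2 in place of CLOCK, bind E-boxes and switch on their own repressors, and the PER and CRY proteins then return to the nucleus and shut CLOCK and BMAL1 down. A second loop runs through the nuclear receptors REV-ERBα and REV-ERBβ (Nr1d1 and Nr1d2), which repress Arntl and Npas2 from ROR response elements, while CIART, DEC1 (Bhlhe40) and DEC2 (Bhlhe41) are further repressors that act on the E-box arm. In liver these transcripts rise and fall over the day, each with its own phase, and many follow feeding.

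The promoters are shown for letters that match the elements named for this loop. RefSeq promoters on GRCm38.p6 were matched for 8 of the 10 genes, with none for Per2 or Bhlhe40. Those of Cry2, Nr1d1 and Nr1d2 were searched but are not printed, and each of the 5 printed holds a match. The 5 sequences below are the 250 bases before the first RefSeq start site, on the strand of the gene, 5′ to 3′, and the capitals mark E-boxes, E′-boxes and D-boxes. They cover chr3:95882229-95882478 on the minus strand for Ciart, chr6:145865421-145865670 on the minus strand for Bhlhe41, chr11:69098699-69098948 on the plus strand for Per1, chr10:85185055-85185304 on the minus strand for Cry1 and chr4:151044666-151044915 on the minus strand for Per3.
Ciart: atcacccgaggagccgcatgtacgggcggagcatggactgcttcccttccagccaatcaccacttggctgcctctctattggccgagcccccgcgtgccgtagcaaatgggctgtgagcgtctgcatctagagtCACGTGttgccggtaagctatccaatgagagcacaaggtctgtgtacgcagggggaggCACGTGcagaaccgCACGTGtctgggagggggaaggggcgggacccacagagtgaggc
Bhlhe41: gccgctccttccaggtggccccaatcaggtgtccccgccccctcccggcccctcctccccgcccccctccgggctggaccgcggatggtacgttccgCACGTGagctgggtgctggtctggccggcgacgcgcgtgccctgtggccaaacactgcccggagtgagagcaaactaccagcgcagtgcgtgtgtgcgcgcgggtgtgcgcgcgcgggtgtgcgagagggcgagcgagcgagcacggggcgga
Per1: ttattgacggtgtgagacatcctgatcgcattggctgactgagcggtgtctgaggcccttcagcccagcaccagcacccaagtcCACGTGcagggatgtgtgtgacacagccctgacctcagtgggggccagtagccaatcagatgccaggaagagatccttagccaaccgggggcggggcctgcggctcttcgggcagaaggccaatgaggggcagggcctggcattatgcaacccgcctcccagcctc
Cry1: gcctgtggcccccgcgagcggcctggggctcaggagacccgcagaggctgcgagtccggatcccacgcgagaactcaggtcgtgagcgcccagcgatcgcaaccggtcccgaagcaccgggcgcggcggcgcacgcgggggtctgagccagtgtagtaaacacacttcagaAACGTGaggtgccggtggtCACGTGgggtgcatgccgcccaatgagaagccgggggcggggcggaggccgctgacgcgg
Per3: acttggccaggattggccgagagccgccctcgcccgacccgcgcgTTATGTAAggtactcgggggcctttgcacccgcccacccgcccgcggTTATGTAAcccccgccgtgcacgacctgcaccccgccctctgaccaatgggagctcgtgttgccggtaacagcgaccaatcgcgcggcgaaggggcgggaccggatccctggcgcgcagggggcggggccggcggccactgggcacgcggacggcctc

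The E-box searched was CACGTG, which reads the same on both strands, the E′-box was CACGTT on either strand, the D-box was TTATGTAA or TTACGTAA on either strand and the ROR response element was TAGGTCA or TGGGTCA on either strand. The matches printed do not overlap one another. Ciart held 3 E-boxes, which began 116, 58 and 44 bases before the start site. Bhlhe41 held 1 E-box 153 bases before its start, Per1 held 1 at 166 bases, and Cry1 held 1 at 60 bases beside an E′-box at 79 bases. Per3 held no E-box in this window and had 2 D-boxes, at 205 and 158 bases, the element bound by the PAR bZIP factors DBP, TEF and HLF. Cry2 and Nr1d1 each had an E′-box, at 166 and 28 bases, and Nr1d2 had no match. An E-box was thus found in 4 of the 8 genes and an E-box or E′-box in 6, over the window from 250 bases before to 50 after a start site. None of the 8 held a ROR response element. Of the 15 other clock genes described below that had a RefSeq promoter, 3 held an E-box and 4 an E-box or E′-box. A ROR response element was found in 2 of these 15 genes and a D-box in none. Among the 8 genes of the arm, Per1 alone had a second RefSeq start site, whose promoter held no match. Of all 27025 genes with a RefSeq promoter of the same length, 8.09% held an E-box at any start site, 5.44% an E′-box, 1.23% a D-box and 7.35% a ROR response element. A match is a description of letters and not of binding. Among the 4 genes with an E-box, Cry1 had a lower mean and Ciart, Bhlhe41 and Per1 a higher mean in AAV8-AGXT mice.

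The libraries held 17095433 to 28780140 read pairs on genes, with a median of 22853957.5 in AAV8-GFP and 18470606.5 in AAV8-AGXT mice. The mouse gene Agxt stood at 148.3 to 179.9 CPM (counts per 1000000 counted read pairs, scaled by TMM) in AAV8-GFP and at 201.5 to 405.3 CPM in AAV8-AGXT mice (log2 fold change 0.90, SE 0.22, adjusted p = 0.0489 by edgeR), but the transgene is human, and how many of its reads align to the mouse gene was not tested. The labelled tissue showed its markers, with a summed 47000 to 57700 CPM of 5 hepatocyte genes in AAV8-GFP and 55900 to 77800 CPM in AAV8-AGXT mice. Of the markers of other liver cells, all 5 cholangiocyte genes had a log2 fold change below 0, with a median of -1.34 and a sum of 225 to 673 against 74.1 to 272 CPM. Most of that sum was 1 gene, Spp1, at 201 to 611 CPM in AAV8-GFP and 60.3 to 239 CPM in AAV8-AGXT mice. The 5 stellate cell genes had a median of -0.50, with sums of 317 to 510 against 178 to 395 CPM, and 4 of them were below 0. The 3 tested of 5 neutrophil genes were all below 0, with sums over the list of 20.3 to 32.3 against 6.83 to 21.8 CPM, and the 5 lymphocyte genes had a median of -0.52 and summed 6.37 to 8.91 against 3.94 to 7.50 CPM. The macrophage and endothelial medians were -0.02 and 0.25, with sums of 338 to 521 against 206 to 702 and of 121 to 179 against 131 to 234 CPM. None of these markers was at 0 in all mice and none passed edgeR's quasi-likelihood test, although all 5 cholangiocyte genes and 3 stellate cell genes were lower at an unadjusted p under 0.05, and DESeq2 called 4 and 1 of them and limma-voom none. At the same unadjusted p, 1 macrophage gene (Cd68, log2 fold change -1.0) and 1 neutrophil gene (Csf3r, -0.89) were also lower, both of them called by DESeq2, and 2 hepatocyte genes (Apoa1, 0.46, and Apob, 0.37) were higher, of which DESeq2 called 1. These 4 genes were named after their values were seen. Over all genes and in either direction, 3988 of 15248 had an unadjusted p under 0.05 by edgeR, and 7974 had a log2 fold change above 0. DESeq2 called 2131 of 15218 and limma-voom 682 of 15248. The part of cell makeup in the clock values was not tested, and in whole liver fewer cells of a type and less RNA per cell cannot be told apart.

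**Figure D1:**
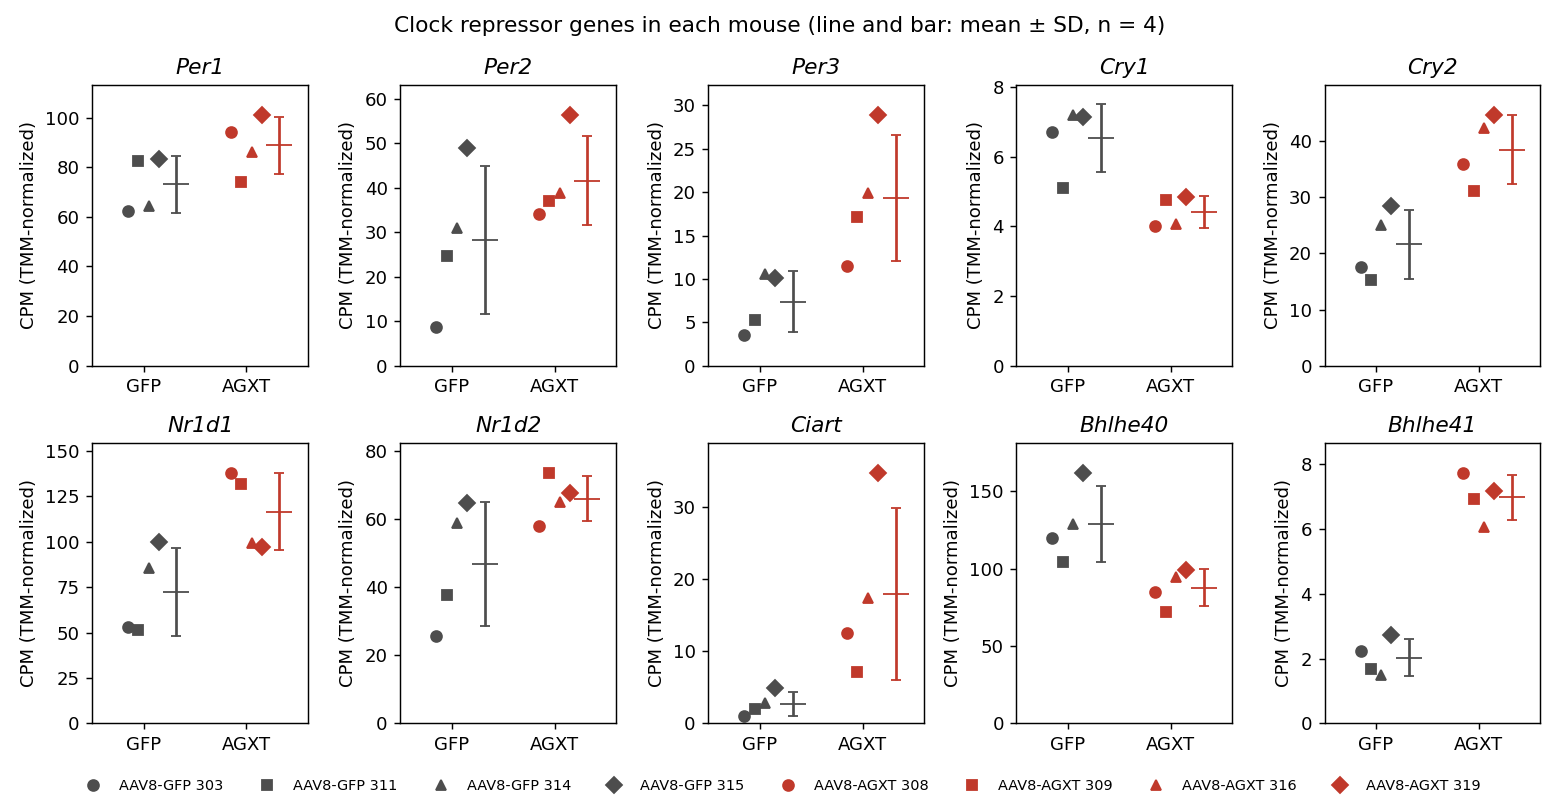
Normalized CPM (y axis, each panel from 0) of the 10 repressor genes in the 4 AAV8-GFP mice (grey) and the 4 AAV8-AGXT mice (red), 1 symbol per mouse, with the mean and SD at the right of each group. Ciart, Bhlhe41, Per3 and Cry2 lie higher in every AAV8-AGXT mouse than in any AAV8-GFP mouse, Cry1 and Bhlhe40 lie lower, and the other 4 genes overlap.

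Across the arm, 8 genes had a higher and 2 a lower mean in AAV8-AGXT than in AAV8-GFP mice. Of all genes tested, 7974 of 15248 had a log2 fold change above 0. Ciart, Bhlhe41 and Cry2 were called higher by edgeR's quasi-likelihood test at an adjusted p under 0.05, and no gene of the arm was called lower. Among all genes tested 4.35% were called, 2.45% higher and 1.9% lower, and since the genes were listed with this contrast known nothing is read from their count. The median log2 fold change (AAV8-AGXT minus AAV8-GFP, scaled by TMM) was 0.62 over the 10 genes and 0.018 over all genes tested. The values of 6 genes did not overlap between the groups, 4 higher and 2 lower, against 16.6% of all genes tested, of which 8.93% were higher and 7.63% lower. The calls depended on single animals, since without AAV8-GFP mouse 311 or without AAV8-AGXT mouse 319 no gene of the arm was called, and the calls among all genes went from 664 to 2 and to 14.

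Among the Period genes, which encode the PER scaffolds of the repressor complex, Per3 differed most. Per3 (ENSMUSG00000028957, GRCm38 chr4:151003652-151044665, minus strand) stood at 3.51, 5.26, 10.6 and 10.1 CPM in AAV8-GFP mice 303, 311, 314 and 315, and at 11.5, 17.2, 19.9 and 28.9 CPM in AAV8-AGXT mice 308, 309, 316 and 319. The lowest AAV8-AGXT mouse lay just above the highest AAV8-GFP mouse. The mean was 7.37 ± 3.52 against 19.4 ± 7.23 CPM (SD, n = 4 each), and the log2 fold change came to 1.41 with a standard error of 0.37. This placed Per3 at the 99.2th percentile of all tested genes without a call by edgeR, while DESeq2 and limma-voom called it.

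Per2 (ENSMUSG00000055866, chr1:91415982-91459324, minus strand), a Period gene whose loss shortens the daily rhythm of mice, stood at 8.71, 24.6, 30.9 and 48.9 CPM in AAV8-GFP mice, in the same order, and at 34.0, 37.1, 38.9 and 56.3 CPM in AAV8-AGXT mice. The spread lay within the control group, where the highest mouse held 5.61 times the lowest and mouse 315 exceeded 3 of the 4 AAV8-AGXT mice. Its log2 fold change of 0.56 had a standard error of 0.40 and was 0.26 without mouse 303, 0.96 without mouse 315 and 0.34 under scaling by total counts. Per1 (ENSMUSG00000020893, chr11:69095217-69109960, plus strand) was the steadiest of the 3, at 62.3, 82.4, 64.2 and 83.2 against 94.0, 74.1, 86.3 and 101 CPM. Its groups overlapped, its log2 fold change was 0.28 with a standard error of 0.14, and 79.8% of the tested genes had a smaller value. Under scaling by total counts, where the median of all genes was -0.22, Per1 stood at 0.04.

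The 2 cryptochromes, which are the main transcriptional repressors in the PER and CRY complex, went opposite ways. Cry2 (ENSMUSG00000068742, chr2:92403646-92434043, minus strand) stood at 17.5, 15.3, 25.1 and 28.4 CPM in AAV8-GFP and at 35.9, 31.0, 42.3 and 44.6 CPM in AAV8-AGXT mice. The groups did not touch, the means were 21.6 ± 6.17 and 38.4 ± 6.17 CPM, and the log2 fold change was 0.84 with a standard error of 0.20. The call of Cry2 was lost in 6 of the 8 fits that left out 1 mouse each. It was also lost with other normalizations and with a stricter filter. Over all alternatives its log2 fold change ran from 0.61 to 1.00. Cry1 (ENSMUSG00000020038, chr10:85131700-85185064, minus strand) stood at 6.72, 5.11, 7.20 and 7.14 CPM in AAV8-GFP and at 4.0, 4.75, 4.06 and 4.86 CPM in AAV8-AGXT mice. Every AAV8-AGXT mouse was thus below every AAV8-GFP mouse, by as little as 5.11 against 4.86 CPM, and the log2 fold change was -0.56 with a standard error of 0.17.

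Both REV-ERB receptors had higher means with overlapping groups. Nr1d1 (ENSMUSG00000020889, chr11:98767932-98775333, minus strand) stood at 52.8, 51.3, 85.5 and 99.9 CPM in AAV8-GFP and at 138, 132, 99.4 and 97.0 CPM in AAV8-AGXT mice. AAV8-GFP mouse 315 lay above AAV8-AGXT mice 316 and 319, and the log2 fold change was 0.69 with a standard error of 0.23. The DESeq2 Wald test called Nr1d1 higher (adjusted p = 0.0401), and no other tool or setting did. Nr1d2 (ENSMUSG00000021775, chr14:18204054-18239127, minus strand) stood at 25.7, 37.6, 58.9 and 64.7 CPM against 57.9, 73.6, 65.0 and 67.5 CPM. The AAV8-AGXT mice were close together, with a coefficient of variation of 9.88% against 39.0% in AAV8-GFP mice, and the log2 fold change was 0.50 with a standard error of 0.25. It was 0.30 without mouse 303 and 0.28 under scaling by total counts.

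Ciart (ENSMUSG00000038550, chr3:95878503-95882251, minus strand), the E-box repressor also called CHRONO, had the largest fold change of the arm. It stood at 1.09, 2.02, 2.86 and 4.94 CPM in AAV8-GFP and at 12.5, 7.09, 17.3 and 34.7 CPM in AAV8-AGXT mice, from 28 to 736 counts per library. No value overlapped, and the mean of 2.73 ± 1.64 CPM in AAV8-GFP mice was 6.56 times as high in AAV8-AGXT mice at 17.9 ± 12 CPM. The log2 fold change of 2.73, with a standard error of 0.54, was larger than that of 99.9% of the tested genes, and it ran from 2.19 to 3.18 with 1 mouse left out, where the call was lost without 303, 311, 314 or 319. Within each group the values of Ciart spread more widely than those of most genes, with coefficients of variation of 60.2% and 66.8% against medians over all genes of 15.1% and 18.6%.

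The DEC pair split as the cryptochromes did. Bhlhe41 (ENSMUSG00000030256, chr6:145858243-145865558, minus strand) stood at 2.23, 1.68, 1.48 and 2.73 CPM in AAV8-GFP and at 7.73, 6.91, 6.06 and 7.17 CPM in AAV8-AGXT mice. The gap between the groups was wider than the range within either, the mean was 3.43 times as high, and the log2 fold change was 1.78 with a standard error of 0.22. Its call held in 13 of 15 alternatives and was lost without mouse 311 or 319, with log2 fold changes of 1.64 to 1.95 over the mice left out. Bhlhe40 (ENSMUSG00000030103, chr6:108660629-108666925, plus strand) stood at 120, 104, 129 and 162 CPM against 85.0, 72.2, 94.4 and 99.3 CPM. Every AAV8-AGXT mouse lay below every AAV8-GFP mouse, and the log2 fold change was -0.55 with a standard error of 0.15. DESeq2 and the scaling by total counts called both Cry1 and Bhlhe40 lower, and the other 5 tools or settings that kept all mice called neither.

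Exons of 4 genes overlap a gene on the opposite strand: Nr1d1 shares 263 bases with Thra, Cry2 295 with D930015M05Rik, Bhlhe40 118 with 0610040F04Rik and Bhlhe41 1280 with Gm43909. The kit marked strand, but the strand option of the counting is not given in the sources used here. How reads in the shared bases were counted is thus not known, and its effect on the values of these 4 genes was not measured. The same limit holds for other clock genes described below. Dbp shares 539 bases with Sphk2, Usp2 200 with each of 2 genes, Tspan4 292, Tef 193, Rora 82 and Arntl 33.

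**Figure D2:**
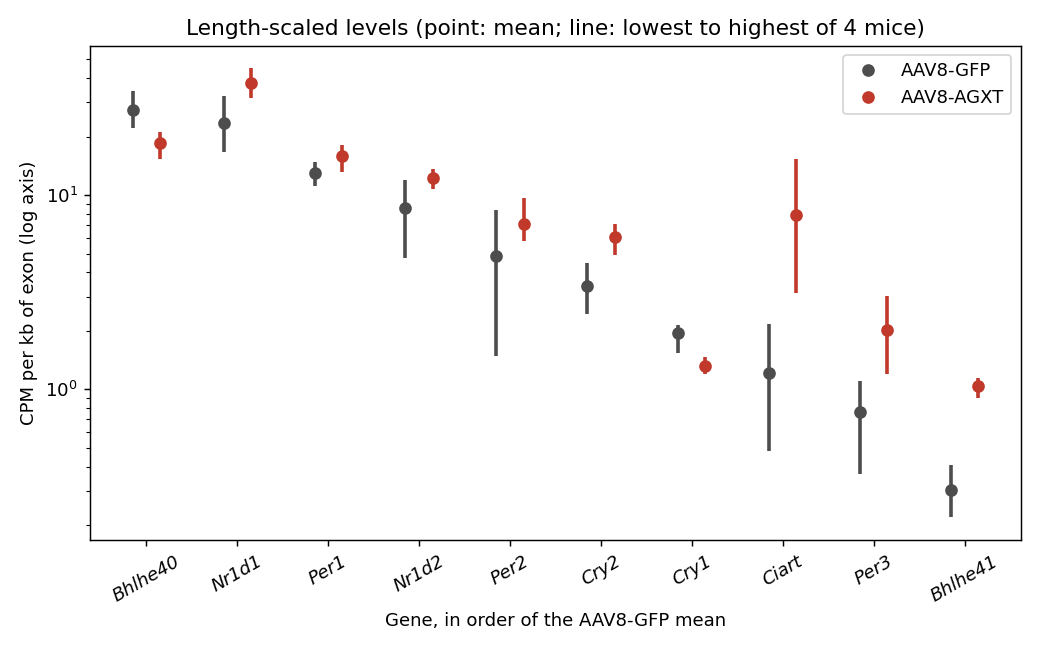
Level per kb of annotated exon (y axis, log scale) of the 10 repressor genes, in the order of the AAV8-GFP mean, with points for group means and lines from the lowest to the highest of 4 mice (grey AAV8-GFP, red AAV8-AGXT). Bhlhe40 leads in AAV8-GFP mice at 27.4 and Nr1d1 in AAV8-AGXT mice at 37.9 CPM per kb, and Ciart moves from the eighth place to the fifth.

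Scaled per kb of exon, the order of levels in AAV8-GFP mice was Bhlhe40 (27.4 CPM per kb), Nr1d1 (23.5), Per1 (13.0), Nr1d2 (8.63), Per2 (4.83), Cry2 (3.41), Cry1 (1.96), Ciart (1.21), Per3 (0.767) and Bhlhe41 (0.302). The ranges of neighbours in that order overlapped except between Nr1d1 and Per1 and between Cry2 and Cry1. In AAV8-AGXT mice the order was Nr1d1 (37.9 CPM per kb), Bhlhe40 (18.6), Per1 (15.8), Nr1d2 (12.2), Ciart (7.92), Per2 (7.10), Cry2 (6.08), Per3 (2.02), Cry1 (1.32) and Bhlhe41 (1.04). There the ranges were apart between Nr1d1 and Bhlhe40, between Cry2 and Per3 and between Cry1 and Bhlhe41. Bhlhe40, Nr1d1 and Per1 held the upper 3 places in both groups.

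**Figure D3:**
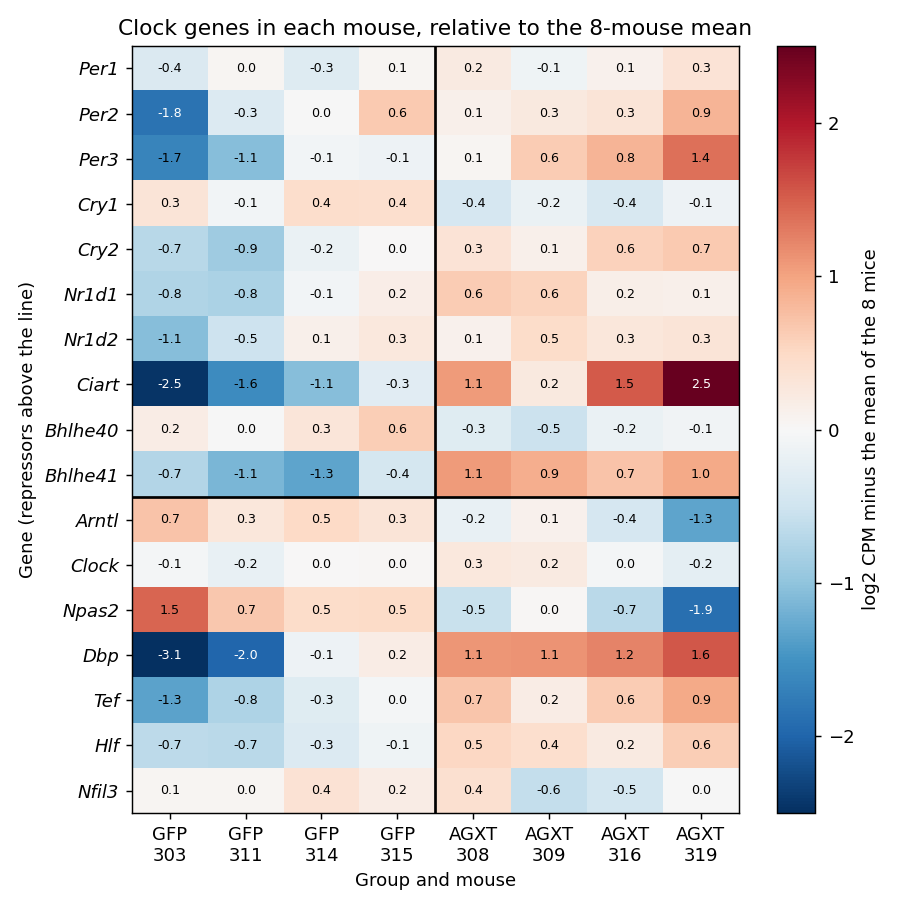
Log2 CPM of each clock gene in each mouse minus the mean of the 8 mice (colour and printed value, red above and blue below), with AAV8-GFP mice left and AAV8-AGXT mice right of the line and the repressor genes above it. AAV8-GFP mouse 303 is the lowest and AAV8-AGXT mouse 319 the highest for Per1, Per2, Per3 and Ciart.

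The animals at the ends of the arm were the same for several genes. AAV8-GFP mouse 303 was the lowest of the 8 mice for 5 genes, namely Per1, Per2, Per3, Nr1d2 and Ciart, and AAV8-AGXT mouse 319 was the highest for 5, namely Per1, Per2, Per3, Cry2 and Ciart. Over the 10 genes the mean rank of a mouse, with 1 for the lowest and 8 for the highest, was 2.4, 2.6, 3.8 and 5.3 for AAV8-GFP mice 303, 311, 314 and 315 and 5.0, 4.9, 5.4 and 6.6 for AAV8-AGXT mice 308, 309, 316 and 319. AAV8-GFP mouse 315 thus ranked above AAV8-AGXT mice 308 and 309. The median coefficient of variation of the 10 genes was 31.0% in AAV8-GFP mice, where that of all tested genes was 15.1%, and 14.8% in AAV8-AGXT mice, where that of all tested genes was 18.6%. In the AAV8-GFP group the coefficients of Ciart, Per2 and Per3, at 60.2%, 58.8% and 47.8%, were at the 98th, 97.8th and 95th percentiles of all genes. The hour of tissue collection has no value here, and its part in the spread was not tested.

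The activators that the arm represses were measured in the same libraries. Of Arntl, Arntl2, Clock and Npas2 none passed the edgeR quasi-likelihood test, where 2 were lower at an unadjusted p under 0.05, DESeq2 called 2 lower and limma-voom 1. For comparison, 3988 of all 15248 genes had an unadjusted p under 0.05 in either direction. DESeq2 called 2131 of 15218 genes and limma-voom 682 of 15248. Npas2, the partner of BMAL1 that can replace CLOCK, stood at 15.3, 8.91, 7.66 and 7.76 CPM in AAV8-GFP and at 3.80, 5.65, 3.49 and 1.51 CPM in AAV8-AGXT mice. Its groups did not overlap, with a log2 fold change of -1.46 (SE 0.37, adjusted p = 0.0546). Arntl, which encodes BMAL1, stood at 16.4, 12.2, 14.2 and 12.6 against 8.84, 10.8, 7.50 and 4.01 CPM, again without overlap, with a log2 fold change of -0.83 (SE 0.26, adjusted p = 0.0843). Clock, the partner of BMAL1, overlapped between the groups, at 31.2 to 36.5 against 30.2 to 42.5 CPM, with a log2 fold change of 0.11 (SE 0.12, adjusted p = 0.61) that was -0.13 under scaling by total counts. Arntl2, a scarce paralogue of Arntl, had a log2 fold change of -0.42 (SE 0.31, adjusted p = 0.408), which was -0.25 without mouse 308.

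**Figure D4:**
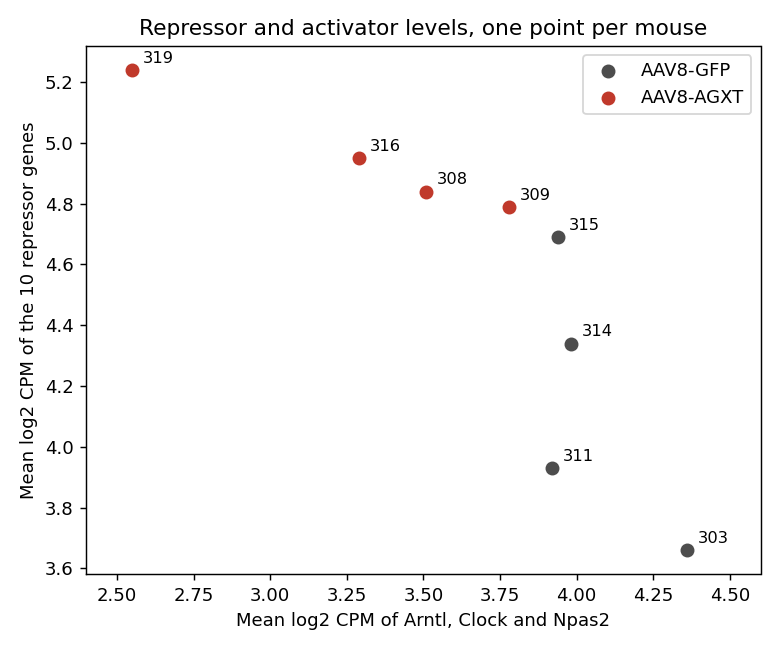
Mean log2 CPM of the 10 repressor genes (y axis) against mean log2 CPM of Arntl, Clock and Npas2 (x axis), 1 labelled point per mouse, grey for AAV8-GFP and red for AAV8-AGXT. The 4 AAV8-AGXT mice lie above and to the left of the AAV8-GFP mice, with mouse 319 at 5.24 and 2.55 and mouse 303 at the other end at 3.66 and 4.36.

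Within a library, the balance of the 2 sides does not depend on the scaling between mice. The mean log2 CPM of the 10 repressor genes minus that of Arntl, Clock and Npas2 was -0.70, 0.01, 0.36 and 0.74 in AAV8-GFP mice 303, 311, 314 and 315 and 1.33, 1.00, 1.66 and 2.70 in AAV8-AGXT mice 308, 309, 316 and 319. All 4 AAV8-AGXT values were above the 4 AAV8-GFP values, which the choice of the genes in part fixed. The group means were 0.10 ± 0.61 and 1.67 ± 0.74 (SD, n = 4 each), a difference of 1.57 on the log2 scale. The repressor mean was 4.16 ± 0.45 in AAV8-GFP and 4.96 ± 0.20 in AAV8-AGXT mice, and the activator mean 4.05 ± 0.21 and 3.28 ± 0.53.

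Rora, an ROR receptor that competes with the REV-ERBs for their response elements, overlapped between the groups. It ranged from 32.4 to 46.0 CPM in AAV8-GFP and from 39.8 to 47.4 CPM in AAV8-AGXT mice, with a log2 fold change of 0.16 (SE 0.14, adjusted p = 0.493) that was -0.08 under scaling by total counts. It was called by none of edgeR, DESeq2 and limma-voom and had no unadjusted p under 0.05, and Rorb, a receptor known from retina and brain, was at 0 counts in all 8 livers.

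Of the PAR bZIP factors Dbp, Tef and Hlf, which activate through D-boxes, and their competitor Nfil3, edgeR called 2 of 4 higher and none lower, where 2.45% of all genes tested were called higher and 1.9% lower. This list too was chosen with earlier results of these data known, so nothing is read from its count. Tef stood at 42.6, 62.8, 87.7 and 104 CPM in AAV8-GFP and at 174, 123, 166 and 207 CPM in AAV8-AGXT mice, which gave a log2 fold change of 1.17 (SE 0.26, adjusted p = 0.0429 by edgeR). Hlf stood at 22.6, 22.3, 28.3 and 33.1 against 51.4, 47.7, 41.9 and 54.7 CPM, a log2 fold change of 0.88 (SE 0.15, adjusted p = 0.0278). Neither overlapped between the groups. These calls were lost in 6 and 3 of the 8 fits that left out 1 mouse each, among them those without 311 and 319 for both. Dbp, the albumin promoter D-box binding protein, stood at 3.44, 7.28, 26.5 and 32.8 against 62.1, 62.7, 68.2 and 84.7 CPM. Its log2 fold change of 2.0 (SE 0.57) had an adjusted p of 0.0724 by edgeR, and DESeq2 and limma-voom called it. Nfil3, the repressor that competes at D-boxes, had a log2 fold change of -0.27 (SE 0.20, adjusted p = 0.422), which was -0.50 without mouse 308 and -0.16 without mouse 309.

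Of 6 liver genes that follow the clock, edgeR called Por and Usp2 higher and none lower, against the same shares of all genes. Nothing is read from this count either, since the list was chosen in the same way. Por, the reductase that feeds electrons to cytochrome P450 enzymes, stood at 266, 232, 299 and 218 CPM in AAV8-GFP and at 736, 419, 601 and 773 CPM in AAV8-AGXT mice. The fitted log2 fold change was 1.32 (SE 0.20, adjusted p = 0.0246 by edgeR), and the call was lost without 311, 314 or 319. Usp2, a deubiquitinase, stood at 3.05, 9.18, 11.3 and 10.6 against 19.3, 20, 25.4 and 46.8 CPM, a log2 fold change of 1.71 (SE 0.40, adjusted p = 0.0465) that passed the threshold in none of the 8 fits with 1 mouse left out. Wee1 and Nampt, a cell cycle kinase and the rate-limiting enzyme of NAD salvage, both had a log2 fold change of 0.44, with adjusted p-values of 0.371 and 0.191, and were 0.22 and 0.21 under scaling by total counts. Tspan4 and Lonrf3 stood at 0.11 and -0.08, with adjusted p-values of 0.858 and 0.871.

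**Figure D5:**
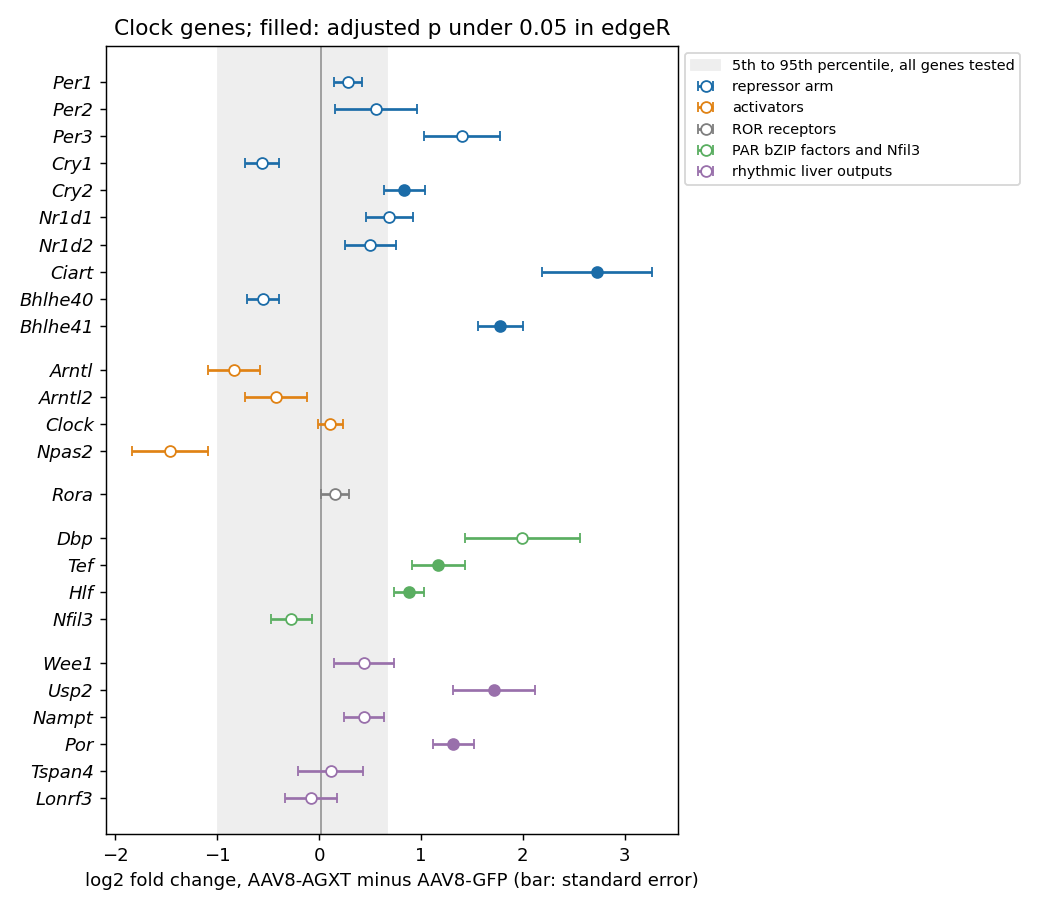
Log2 fold change, AAV8-AGXT minus AAV8-GFP, with its standard error (x axis) for the repressor genes and the other clock genes (y axis), with filled points for genes called by edgeR, a grey band from the 5th to the 95th percentile of all genes tested and a grey line at their median of 0.018. Ciart at 2.73, Dbp at 2.0 and Bhlhe41 at 1.78 lie farthest to the right, and Npas2 at -1.46 farthest to the left.

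The enzymes and cofactors that act on the repressor proteins did not pass the test. None of 9 kinases and ubiquitin ligases of PER and CRY was called by edgeR, DESeq2 or limma-voom or had an unadjusted p under 0.05, and their median log2 fold change was 0.02. Of 10 corepressors of the REV-ERBs and PER none was called by edgeR or limma-voom, 1 was lower at an unadjusted p under 0.05 and by DESeq2, and the median was 0.03. Among all genes 3988 of 15248 reached that unadjusted p in either direction, and DESeq2 called 2131 of 15218.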

How the data were processed

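Whole-liver mRNA of 8 mice was measured, and mice were grouped by the treatment in the labels. According to the methods and the submitters' processing notes, the authors checked reads with FastQC 0.11.8, trimmed them with Trimmomatic 0.35, aligned them to GRCm38 (Ensembl release 90) by HISAT2 2.1.0.13 and counted pairs per gene by HTSeq 0.6.0. The strand option and overlap mode are not given in the sources used here. The deposited values are raw counts per gene, 1 file per mouse, with no normalization by the authors, and HTSeq's tallies of uncounted reads stayed out of library sizes and tests. RNA integrity numbers were at least 8.3.

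Of 52636 genes, 52489 matched GENCODE M21 on the same build, which gave symbols, positions and exon lengths. edgeR 4.0.16 in R 4.3.3 was used with filterByExpr, TMM factors, a quasi-likelihood test of treatment alone, and p-values adjusted after Benjamini and Hochberg over 15248 genes, with calls under 0.05. Standard errors came from the log2 fold change and the F statistic. CPM used the TMM factors, and log2 CPM a prior count of 2. The fit was tested on simulated data. Alternatives were DESeq2 1.42.0, limma-voom (limma 3.58.1), 3 other scalings, 2 other filters, each mouse left out in turn, and other prior counts for the ratio. The common biological coefficient of variation was 23.3%, and the lowest counts of Ciart, Cry1 and Bhlhe41 in a library were 28, 58 and 32.

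The 10 repressor genes, the other lists and the alternatives were chosen with earlier results of these data known. Named were all genes of the repressor, activator, ROR, D-box and output lists and called genes of other lists. Also named were the 5 genes with the most positive and the 5 with the most negative correlation with the arm within groups. Feeding genes Srebf1 and Fasn were named after their values were seen. Genes of the lists that are not reported here were left out of the list counts and stayed in the fit.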

Additional observations from a re-analysis of the deposited data

Results flagged for a closer look

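In each group of 4 mice the highest and lowest values of the named genes were checked for distance from the rest, with Dixon's critical value for the gap over the range as the limit, over 50 groups, of which chance flags about 1 in 20. Npas2 was at 15.3 CPM in AAV8-GFP mouse 303, whose nearest neighbour was at 8.91 CPM, a gap of 0.836 of the range. The same mouse was the lowest of all 8 for 5 of the 10 repressor genes. Tspan4, a tetraspanin, was at 56.0 CPM in AAV8-GFP mouse 314, with the next at 31.1 CPM and a gap of 0.984 of the range. No repressor gene was past this limit in either group.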

How the results depend on the processing

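No paired analysis was possible because the animal numbers are not shared between the groups. No repressor gene changed direction: of 150 alternative values over the 10 genes, 126 kept direction and side of the threshold, 16 lost and 8 gained a call, and for the other clock genes and Fkbp5 the counts were 199, 26 and 10 of 240, with 5 reversed. Scaling by total counts moved the median of all genes to -0.22 and reversed Clock (-0.13), Rora (-0.08) and Tspan4 (-0.13). Tspan4 was also -0.30 without AAV8-AGXT mouse 319, and Lonrf3 0.10 without AAV8-GFP mouse 303. Whole-table calls (664, 374 higher and 290 lower) were 2131 (1077 and 1054) with DESeq2 and 1001 (144 and 857) by total counts. The split was 254 higher and 298 lower with upper-quartile scaling and 415 and 431 without a count filter. With 1 mouse left out they ran from 2 to 643, 2 to 379 and 0 to 325. The 3 repressor calls became 7 with DESeq2, 5 higher and 2 lower, and 2 of those by total counts were lower. With 1 mouse left out they ran from 0 to 3, all higher. The 4 other clock calls became 7 with DESeq2 and ran from 0 to 4, and with the cue genes 5 calls became 11 with DESeq2, 8 by total counts and 8 without a filter, and ran from 0 to 6. Tspan4 ran from -0.30 to 0.36 and Lonrf3 from -0.19 to 0.10 with 1 mouse left out. The median of the arm ran from 0.40 to 0.76, or 0.43 to 0.93 with 1 mouse left out. The cause was not tested.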

Other observations

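Genes that answer to hormonal, thermal and nutritional cues which also act on the Period genes were read beside them. Of 5 glucocorticoid-induced genes, 3 had a log2 fold change above 0 and 2 below 0, and edgeR called 1, Fkbp5, higher. Fkbp5 encodes a cochaperone of the glucocorticoid receptor. It stood at 20.2, 25.5, 35.4 and 25.8 CPM in AAV8-GFP and at 50.6, 80.9, 51.2 and 92.7 CPM in AAV8-AGXT mice. The fitted value for Fkbp5 came to 1.37 (SE 0.23, adjusted p = 0.0283 by edgeR's quasi-likelihood test). This call was lost without 311, 314 or 319 and lay at the threshold, with an adjusted p of 0.05, without 303. The other genes of this list ran from -0.41 to 0.53, and edgeR, DESeq2 and limma-voom called none of them. The median of the 5 was 0.12. All 3 feeding-induced genes had a log2 fold change below 0, with a median of -0.59, and none was called by edgeR or limma-voom, while 2 were lower at an unadjusted p under 0.05 and by DESeq2. These were Srebf1, the lipogenic transcription factor, at -0.81 (SE 0.28, adjusted p = 0.104), and Fasn, fatty acid synthase, at -0.59 (SE 0.17, adjusted p = 0.0732). None of 5 fasting-induced genes was called by edgeR, DESeq2 or limma-voom, 1 was higher at an unadjusted p under 0.05, and the median was -0.17. All 5 temperature-responsive genes were above 0 with a median of 0.23, and none had an unadjusted p under 0.05 or was called by any of the 3 tools. Over the whole table edgeR called 664 of 15248 genes, 3988 had an unadjusted p under 0.05, and DESeq2 called 2131 of 15218. These lists were chosen with earlier results of these data known, so nothing is read from their counts.

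With each group mean subtracted, the genes outside the lists whose log2 CPM ran closest to the mean of the repressor genes over the 8 mice, out of 10354 genes with a mean of at least 5 CPM, were Pepd, Wdr81, Bcl3, Ube2l6 and Shc1, and those that ran most against it were Nav1, Igf1r, Slc22a17, Pcnx and Mllt6. The Pearson coefficients of the first 5 lay between 0.958 and 0.979 and those of the others between -0.983 and -0.952, as a description of 8 libraries searched over many genes. The log2 fold changes of these 10 genes between the groups ran from -0.99 to 0.26.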
